A study of Mus musculus with 44 samples.

Results

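The genes described here act in renal calcium handling and vitamin D metabolism: Cyp27b1, Cyp24a1, Vdr, Casr, Trpv5, Trpv6, Calb1, S100g, Atp2b1 and Slc8a1. They were chosen by name, as genes known for these roles and with earlier results of these data in view, and all 10 were found among the 24733 genes with any value above 0. Of the 10, 9 reached the mean of 1 TPM required for testing, among 12874 genes that did so. Trpv6, with a mean of 0.473 TPM, did not. TPM is the abundance of a transcript corrected for its length and scaled to the same total in every library. Polyadenylated RNA had been sequenced from 24 kidney libraries of mice of the 129SV strain aged 8 to 12 weeks. All mice were on night-restricted feeding, so food was present in the dark phase only. The mice were either WT or KO for Bmal1 (Arntl), a transcription factor at the core of the circadian clock. The KO allele, the sex and whether the genotypes were littermates are not given in the sources used here. Libraries were made at zeitgeber time (ZT, hours after lights on) 0, 4, 8, 12, 16 and 20, giving 12 groups of 2 libraries (A and B). Nothing in the labels says that A and B came from separate animals, so p-values measure the spread between libraries, which may be technical.

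The kidney sets how much filtered calcium is returned to the blood. The proximal tubule makes the active hormone, calcitriol, through the enzyme encoded by Cyp27b1, and the enzyme encoded by Cyp24a1 breaks calcitriol down. Calcitriol acts through the vitamin D receptor, Vdr, which induces Cyp24a1 and so closes a feedback loop. In the distal convoluted and connecting tubules calcium enters cells through Trpv5 (and Trpv6), is carried across the cell by the calbindins Calb1 and S100g, and leaves on the blood side through the exchanger Slc8a1 and the pump Atp2b1. Casr, the calcium-sensing receptor, is known in the kidney mainly from the thick ascending limb, where it restrains reabsorption of calcium.

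Promoters were read because both the vitamin D receptor and Bmal1 are DNA-binding factors with known recognition sequences. RefSeq (GRCm38.p6) promoters, from 250 bases before to 50 after the start, were matched for 8 of the 10 genes. For Cyp24a1 and Calb1 no promoter was matched, so neither was searched. The matched promoters were searched on both strands for the E-box CACGTG, which the Bmal1-Clock dimer is known to bind, for the nuclear receptor half-site AGGTCA, and for that half-site repeated with 3 bases between (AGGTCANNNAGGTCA), whose matches also count as half-sites. S100g and Trpv6 each held the half-site at 2 places, and Atp2b1 held the E-box once. In Atp2b1 the match is at the first of its 2 listed starts. The sequences are shown 5′ to 3′ on the gene's own strand, with the match in capitals (TGACCT is AGGTCA read on the other strand).
S100g, 250 bases just before the start, chrX:162964600-162964849, minus strand: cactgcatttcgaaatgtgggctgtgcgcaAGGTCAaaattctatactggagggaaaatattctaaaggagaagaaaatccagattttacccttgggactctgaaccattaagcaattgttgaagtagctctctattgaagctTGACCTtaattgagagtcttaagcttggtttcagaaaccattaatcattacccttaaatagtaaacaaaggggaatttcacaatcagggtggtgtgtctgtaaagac
Trpv6, 90 bases before the start, chr6:41636536-41636625, minus strand: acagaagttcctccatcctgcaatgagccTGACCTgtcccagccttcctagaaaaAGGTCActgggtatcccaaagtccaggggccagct
Atp2b1, 30 bases at the start, chr10:98914638-98914667, plus strand: cgcgggccgcgtCACGTGaccgcgcccagc
Among 32851 promoters of the same length, 16.3% held the half-site, 7.15% the E-box and 0.00609% the spaced repeat. The half-site was not found in these windows of Cyp27b1, Vdr, Casr, Trpv5, Atp2b1 or Slc8a1, and the spaced repeat in none of the 8. Only exact matches in these windows were sought, and the spaced repeat is rare among all promoters, so its absence here carries little information. A match is a description of these letters and not a measured binding site.

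Sequencing depth is unknown, since each TPM column sums to the same total. Mitochondrial genes held 38.7% to 43.2% of TPM in WT and 33.0% to 41.0% in KO. As a check of the labels, Arntl lay between 4.19 and 6.28 TPM in all 12 KO libraries, and swung between 0.295 and 12.9 TPM in WT. Its mean level was no lower in KO, 5.44 TPM ± 0.654 (SD, n = 12) against 4.97 ± 4.76 (SD, n = 12), and at ZT4 it does not tell the genotypes apart (0.05 log2 units, SE 0.22), so it cannot test the labels there. The library labelled KO ZT4 A went against its label: its Cry1, a clock repressor, was at 1.03 TPM against 11.5 to 17.8 in the other 11 KO libraries, and its Nr1d1 at 23.8 TPM against 1.23 to 3.46. The library KO ZT12 replicate A stood apart in its Y-linked genes, which summed to 3.31 TPM against 48.0 to 69.1 in the other 23 libraries. Both stayed under their labels, and values without them are given where a call changed. Markers of the kidney tubule were abundant, with the proximal phosphate transporter Slc34a1 between 1287 and 1803 TPM and the loop gene Umod between 816 and 1469.

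The 10 genes spanned a wide range of levels on the TPM scale, which is corrected for transcript length. S100g averaged 1575 TPM over the 24 libraries, Calb1 120, Vdr 58.2, Cyp24a1 24.9, Slc8a1 12.7, Casr 10.4, Atp2b1 9.13, Trpv5 7.0, Cyp27b1 3.15 and Trpv6 0.473. The upper part of that order was the same nearly everywhere: S100g exceeded Calb1, and Calb1 exceeded Vdr, in 12 of 12 WT and 12 of 12 KO libraries, and Vdr exceeded Cyp24a1 in 12 and 11. The middle was not ordered beyond the spread. Cyp24a1 exceeded Slc8a1 in 7 WT and 8 KO libraries, Slc8a1 exceeded Casr in 8 and 9, and Casr exceeded Atp2b1 in 6 and 10. Atp2b1 exceeded Trpv5 in 12 of 12 WT libraries and in 7 of 12 KO libraries. Trpv5 exceeded Cyp27b1 in 9 WT and 12 KO libraries.

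**Figure D1:**
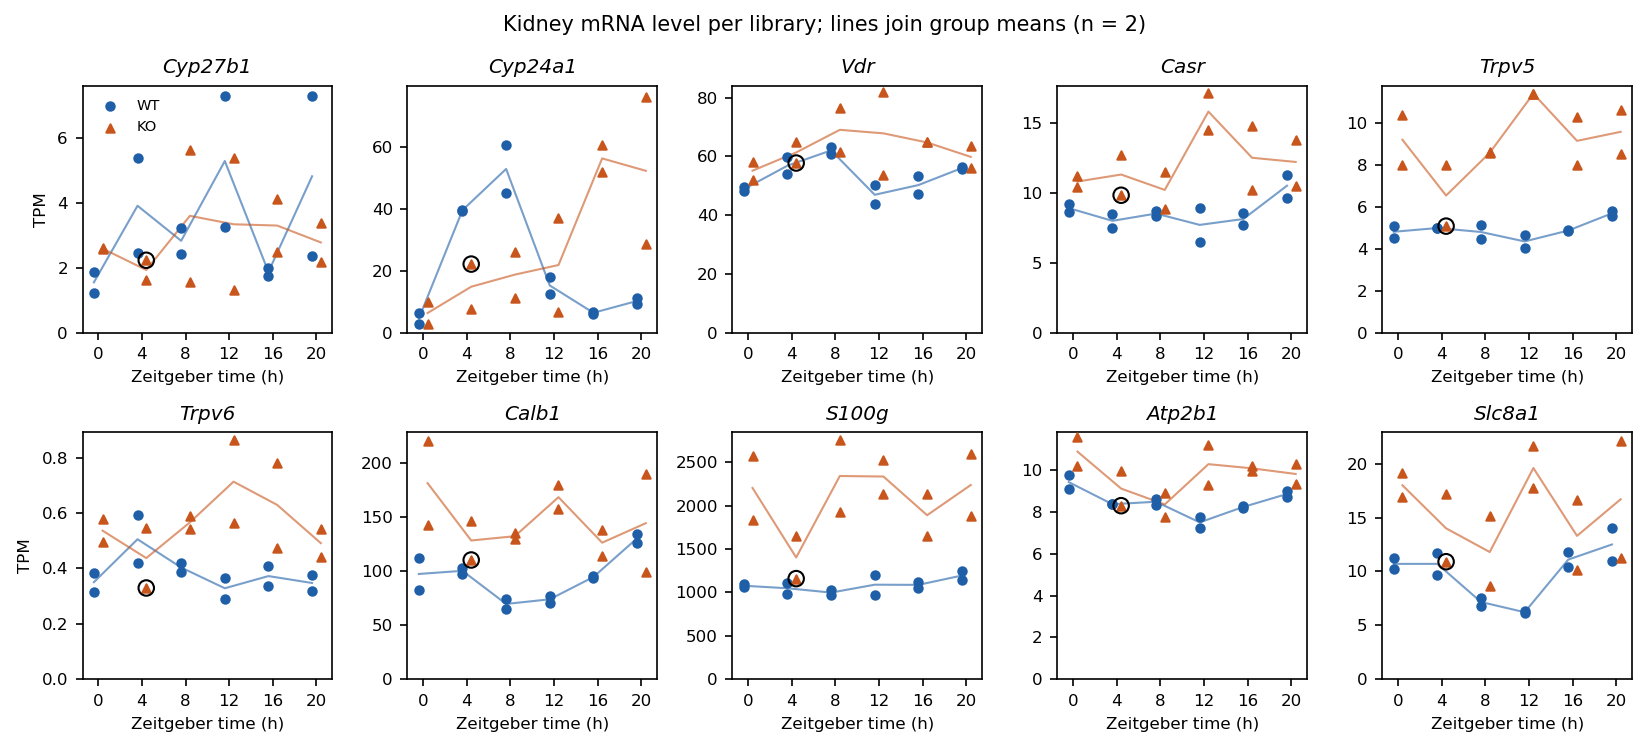
TPM (vertical axis, from 0) of the 10 genes by zeitgeber time in hours (horizontal axis), 1 point per library, WT as circles and KO as triangles; lines join the means of 2 libraries, and the black ring marks the library labelled KO ZT4 A. The KO mean is higher at all 6 times in Vdr, Casr, Trpv5, Calb1, S100g and Slc8a1. Cyp24a1 is high in WT at ZT4 and ZT8 and in KO at ZT16 and ZT20.

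The first comparison asked whether the level of each gene differed between KO and WT kidneys with the time of day taken into account. Among the transport genes tested, the entry channel Trpv5, both calbindins and the exchanger Slc8a1 rose in KO, as did the receptor Casr. The pump Atp2b1 and the receptor Vdr also passed the test, by small differences that did not pass under another scaling. The enzymes that make and destroy calcitriol did not pass the test. In all, 7 of the 9 genes tested were called, each higher in KO (limma, adjusted p under 0.05). This stands against a background in which 50.9% of all genes tested were called higher and 10.0% lower in KO. The median log2 difference of the 9 genes was 0.47, against 0.148 for all genes tested. Rescaling by the median of ratios moved the median of all genes to 0.002, and 22.1% of genes were then called higher and 22.2% lower, a share of 49.9% of calls higher in place of 83.6%. On that scale 5 of the 9 genes were called, all higher, with a median of 0.33.

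S100g, which encodes the small cytosolic buffer calbindin-D9k, was the most abundant of the 10 and rose most. Its lowest, median and highest values over 12 libraries were 965, 1076 and 1244 TPM in WT, and 1158, 2029 and 2753 in KO. The library labelled KO ZT4 A held the lowest KO value, 1158 TPM. The other 11 KO libraries all lay above every WT library, from 1645 upwards. How many of all genes tested have KO libraries above every WT library was not counted, so such counts, here and below, only describe each gene. The difference was 0.90 log2 units (SE 0.10, limma adjusted p = 6.63e-07), or 1.87-fold, and 0.75 under median-of-ratios scaling.

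Trpv5 encodes the apical calcium channel of the distal tubule, the gate for regulated uptake. Its lowest, median and highest values were 4.06, 4.94 and 5.81 TPM in WT, and 5.08, 8.58 and 11.4 in KO. The pattern was that of S100g: 11 of 12 KO libraries lay above all WT libraries, and the exception, at 5.08 TPM, was the library labelled KO ZT4 A. The difference was 0.85 log2 units (SE 0.09, adjusted p = 8.08e-07), or 1.80-fold, and 0.70 under median-of-ratios scaling.

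Calb1, the larger buffer calbindin-D28k, lay at 64.8, 94.3 and 134 TPM (lowest, median and highest) in WT, and at 98.5, 140 and 220 in KO. The genotypes overlapped, with 8 of 12 KO libraries above every WT library. The difference was 0.64 log2 units (SE 0.13, adjusted p = 3.04e-04), or 1.55-fold. Slc8a1, the sodium-calcium exchanger of the basolateral membrane, lay at 6.10, 10.3 and 14.0 TPM in WT and at 8.61, 16.8 and 22.1 in KO, again with 8 of 12 KO libraries above all of WT. Its difference was 0.66 log2 units (SE 0.16, adjusted p = 0.00144).

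Atp2b1, the plasma membrane calcium pump found in most cell types, moved least among the genes called. It lay at 7.25, 8.38 and 9.77 TPM in WT and at 7.79, 9.96 and 11.6 in KO, with 7 of 12 KO libraries above all of WT. The difference of 0.19 log2 units (SE 0.05, adjusted p = 0.00277) was close to the median shift of all genes. It fell to 0.05 (adjusted p = 0.339) under median-of-ratios scaling and to 0.13 (adjusted p = 0.0602) with mitochondrial genes left out of each total, so the call depends on the scaling.

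Vdr, the nuclear receptor for calcitriol, lay at 43.7, 53.7 and 63.2 TPM in WT and at 52.0, 62.5 and 82.0 in KO. The ranges overlapped, with 6 of 12 KO libraries above all of WT. The difference was 0.23 log2 units (SE 0.06, adjusted p = 0.00461), and 0.08 (adjusted p = 0.303) under median-of-ratios scaling, where the call was lost. Casr lay at 6.49, 8.61 and 11.3 TPM in WT and at 8.84, 11.3 and 17.1 in KO, with 6 of 12 KO libraries above all of WT. Its difference of 0.47 log2 units (SE 0.10, adjusted p = 3.54e-04) remained called under both scalings.

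The 2 enzymes varied far more between libraries than the transport genes. Cyp24a1, the 24-hydroxylase, lay at 2.64, 11.9 and 60.5 TPM in WT and at 2.68, 24.1 and 75.9 in KO, so the ranges almost coincided. Its difference over all times was 0.42 log2 units (SE 0.51, adjusted p = 0.494). Cyp27b1, the 1-alpha-hydroxylase, lay at 1.23, 2.43 and 7.30 TPM in WT and at 1.31, 2.52 and 5.64 in KO, with a difference of -0.13 (SE 0.29, adjusted p = 0.726). With these standard errors, a difference of the size seen for Casr was not detectable for either enzyme.

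Trpv6, the channel best known from the intestine, was barely expressed, between 0.291 and 0.591 TPM in WT and between 0.329 and 0.862 in KO. Only when the filter on low values was removed could it be tested. The difference was then 0.44 log2 units (SE 0.12, adjusted p = 0.00639), higher in KO, in a test where 29.2% of 24733 genes were called higher. A pseudocount of 0.1 TPM understates changes at this level.

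Leaving out the library labelled KO ZT4 A kept the same 7 genes called, against 52.6% of all genes called higher, with S100g at 0.96, Trpv5 at 0.91 and Slc8a1 at 0.72 log2 units. Each of the 24 fits without 1 library also called 7 genes.

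**Figure D2:**
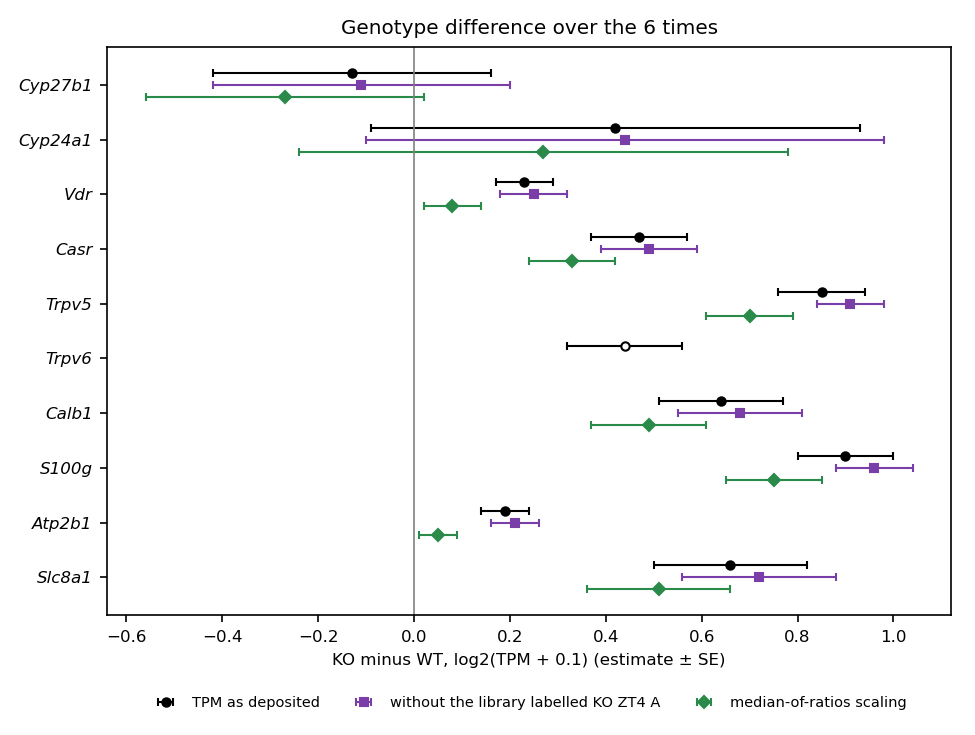
Difference KO minus WT in log2(TPM + 0.1), with its standard error, for each gene over the 6 times; black circles are values as deposited, purple squares leave out the library labelled KO ZT4 A, and green diamonds use median-of-ratios scaling. The open circle for Trpv6 comes from the test with no filter. S100g and Trpv5 lie farthest to the right on each scale, and Vdr and Atp2b1 come close to 0 after rescaling.

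Markers of the nephron segments that carry these transporters were also higher in KO, where 50.9% of all genes were. All 4 markers of the distal convoluted tubule were called higher, among them Trpm6 (0.84 log2 units), Egf (0.61) and the thiazide-sensitive transporter Slc12a3 (0.44). Their summed level ranged from 418 to 536 TPM in WT and from 460 to 883 in KO, or from 599 without the library labelled KO ZT4 A. Of 5 markers of connecting tubule and principal cells, 4 were higher, led by Scnn1b (0.87), and Klk1 was not called (0.15, limma adjusted p = 0.382). Their sums were 928 to 2088 TPM in WT and 1292 to 2441 in KO. Most of each sum was Klk1, at 768 to 1835 TPM in WT and 1002 to 2145 in KO. All 3 intercalated cell markers (60.7 to 77.3 against 75.9 to 121 TPM summed) and all 3 podocyte markers (50.1 to 70.9 against 68.3 to 99.4) were higher too. The 4 thick ascending limb markers split, with 3 higher, Slc12a1 among them (0.72), and Umod lower (-0.36), and their sums ran from 1166 to 1766 TPM in WT and from 1208 to 1473 in KO. The 6 proximal tubule markers, from the segment of Cyp27b1, split into 2 higher and 2 lower, with Slc22a6 at -0.92, and summed to 2151 to 2542 TPM in WT and 2136 to 2735 in KO. After median-of-ratios scaling 3 of the 4 distal convoluted tubule markers and 4 of the 5 of connecting tubule and principal cells were still called higher. So were all 3 of intercalated cells and of podocytes, against 22.1% of all genes. On that scale the thick ascending limb markers stayed at 3 higher and 1 lower. The proximal tubule markers went to 1 higher and 3 lower, against 22.2% of all genes called lower. Among the markers, Pvalb, Trpm6, Cldn16, Klk1 and Lrp2 also belong to the pathway lists. Of 3 blood markers, 2 were higher, and 0 after median-of-ratios scaling. For fat, 0 of 2 tested markers were called in either direction. The adrenal markers Cyp11b1 and Cyp11b2 were below 0.05 TPM in every library, Cyp11a1 reached 0.204 TPM at most, and Star lay between 0.639 and 1.32. The part of these shifts in the rise of the calcium genes was not tested, and in whole kidney a change in the number of cells of a type and a change in RNA per cell cannot be told apart.

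**Figure D3:**
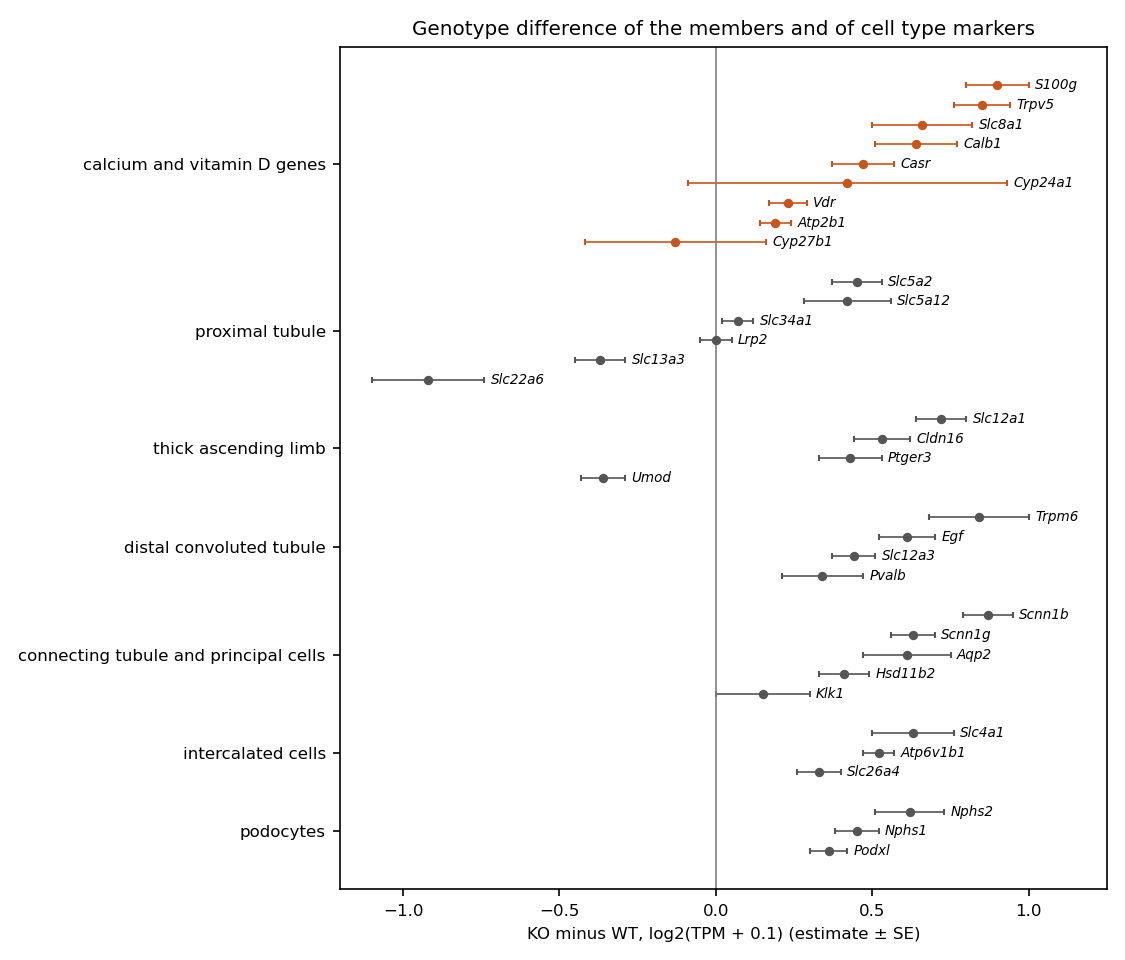
Difference KO minus WT in log2(TPM + 0.1) with its standard error (horizontal axis) for the 9 calcium and vitamin D genes tested (orange) and for markers of 6 kidney cell types (grey), over all 24 libraries. Markers of the distal convoluted tubule, at 0.34 to 0.84, cover much of the range of Trpv5, Calb1 and Slc8a1, while proximal tubule markers lie on both sides of 0.

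The genotypes were next compared at each time, with 2 libraries against 2. Of the 54 contrasts, 19 were called, all higher in KO, and 7 of them were at ZT12, by convention the start of the dark phase. Over all genes tested, 10.7% were called higher in KO at ZT0, 0% at ZT4, 11.1% at ZT8, 31.9% at ZT12, 17.0% at ZT16 and 2.39% at ZT20. The 7 genes called at ZT12 were those called over all times, in a test that includes the same ZT12 libraries.

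At ZT12 the largest difference was that of Slc8a1. Its WT libraries were at 6.32 and 6.10 TPM, the lowest WT values of the day, and its KO libraries at 17.7 and 21.6. The groups were well apart, by 1.64 log2 units (SE 0.32, adjusted p = 0.00205), or 3.11-fold. Trpv5 was at 4.64 and 4.06 TPM in WT and at 11.4 in both KO libraries, a difference of 1.38 (SE 0.18, adjusted p = 1.95e-04). Calb1 was at 76.7 and 70.6 TPM in WT and at 157 and 179 in KO, a difference of 1.18 (SE 0.25, adjusted p = 0.00330). In both genes the KO libraries lay far above those of WT. S100g was at 1204 and 972 TPM in WT and at 2138 and 2531 in KO (1.10, SE 0.22, adjusted p = 0.00184). Casr was at 8.90 and 6.49 TPM in WT and at 17.1 and 14.5 in KO (1.04, SE 0.20, adjusted p = 0.00165). These 5 contrasts, and that of Trpv5 at ZT16, were the 6 of 19 called in each of the 24 fits without 1 library. Vdr at ZT12 (0.50, SE 0.15, adjusted p = 0.0201) was lost without WT ZT12 replicate B (adjusted p = 0.137) or KO ZT12 replicate B (0.20 log2 units, adjusted p = 0.259). It was 0.81 without KO ZT12 replicate A. Atp2b1 at ZT12 (0.44, SE 0.11, adjusted p = 0.00711) was lost without WT ZT12 replicate B (0.0595) or KO ZT12 replicate A (0.0984).

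S100g and Trpv5 were called at each time except ZT4. Their differences at ZT0, ZT8, ZT16 and ZT20 were 1.01, 1.21, 0.79 and 0.89 log2 units for S100g, and 0.91, 0.83, 0.89 and 0.73 for Trpv5. At ZT0 the calls of S100g, Trpv5 and Calb1 were each lost without WT ZT0 replicate A, WT ZT0 replicate B or KO ZT0 replicate A (adjusted p from 0.0675 to 0.278), and Calb1 was then as low as 0.56, without KO ZT0 replicate A. At ZT8 S100g was lost without KO ZT8 replicate A (0.0817), Trpv5 without that library (0.0940) or WT ZT8 replicate B (0.0804), and Calb1 without any 1 of the 4 libraries of that time (0.0775 to 0.152). At ZT16 S100g was lost without WT ZT16 replicate A (0.0897), WT ZT16 replicate B (0.0902) or KO ZT16 replicate B (0.129). Calb1 was called also at ZT0 (0.88) and ZT8 (0.93), and not at ZT16 (0.41) or ZT20 (0.07, adjusted p = 0.914). At ZT20 the Calb1 libraries were at 126 and 134 TPM in WT and at 189 and 98.5 in KO, so the groups overlapped. Casr was called also at ZT16 (0.59, adjusted p = 0.0472), which held in 11 of the 24 fits without 1 library, was 0.32 without KO ZT16 replicate B (adjusted p = 0.337), and was lost with the replicate letter as a block (adjusted p = 0.0537). The calls at ZT20 held in 15 of 24 such fits for S100g and in 12 for Trpv5, with adjusted p up to 0.203 and 0.202. At ZT16 Vdr (0.37) was not called, and passed without KO ZT12 replicate A (0.0300) or KO ZT12 replicate B (0.0301), and Atp2b1 (0.29) passed without the library labelled KO ZT4 A (0.0489) or KO ZT4 replicate B (0.0489). Median-of-ratios scaling ended the calls of S100g at ZT16 (adjusted p = 0.0669) and ZT20 (0.0559), Calb1 at ZT0 (0.0888), Casr at ZT16 (0.143), and Vdr (0.274) and Atp2b1 (0.108) at ZT12. Removing the filter ended those of Calb1 at ZT0 (adjusted p = 0.0618), Casr at ZT16 (0.0851), and Trpv5 (0.0750) and S100g (0.0698) at ZT20. Leaving mitochondrial genes out of each total ended those of Calb1 at ZT8 (adjusted p = 0.0674), Vdr at ZT12 (0.0619) and Casr at ZT16 (0.0671).

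At ZT4 none of the 9 genes was called by limma, 1 (Casr) had an unadjusted p under 0.05, and none of the 12874 genes passed. Trpv5 was at 4.98 and 5.00 TPM in WT, at 5.08 in the library labelled KO ZT4 A and at 8.00 in KO ZT4 replicate B. S100g was at 1110 and 985 TPM in WT, at 1158 in that library and at 1645 in replicate B. In both genes the doubtful library lay beside WT and the other KO library above it. Without the library labelled KO ZT4 A, Trpv5 was called at ZT4 (0.67, adjusted p = 0.0293), as were 10.6% of all genes on the higher side. The remaining KO library at ZT4 was then alone, and its spread was taken to be that of the other groups.

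**Figure D4:**
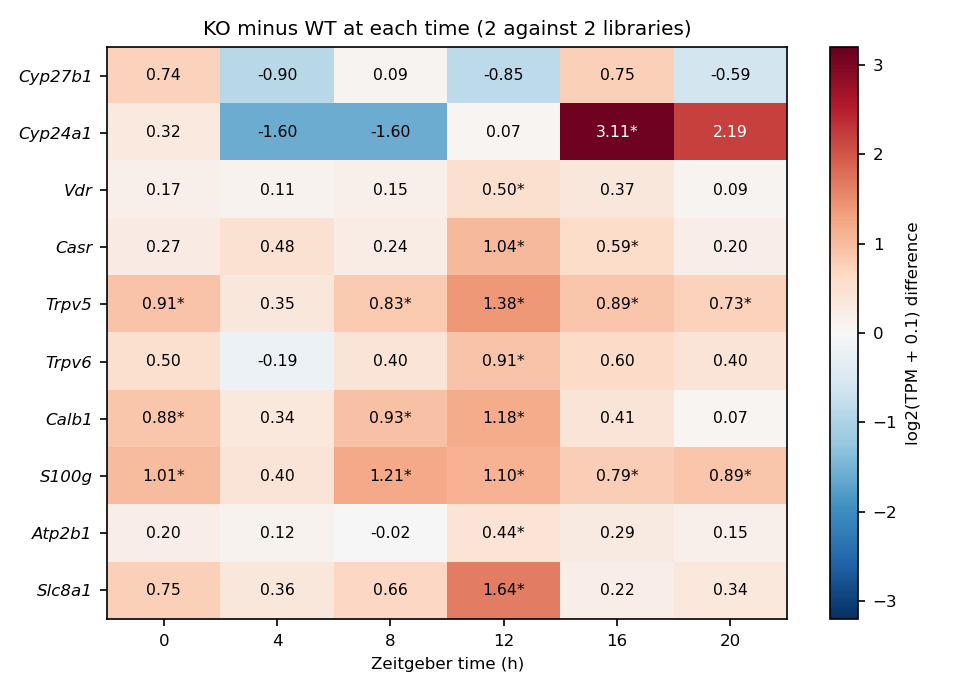
Difference KO minus WT in log2(TPM + 0.1) for each gene (rows) at each zeitgeber time in hours (columns), red where KO is higher and blue where it is lower; an asterisk marks an adjusted p under 0.05, and the Trpv6 row is from the test with no filter. Cyp24a1 runs from -1.60 at ZT4 and ZT8 to 3.11 at ZT16. Vdr, Casr, Trpv5, Calb1, S100g and Slc8a1 are positive at all 6 times.

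Cyp24a1 changed most over the day among the 9 genes. In WT its 2 libraries (A, then B) were at 6.45 and 2.64 TPM at ZT0, 39.6 and 39.3 at ZT4, 60.5 and 45.1 at ZT8, 12.6 and 17.8 at ZT12, 6.71 and 6.07 at ZT16, and 9.07 and 11.2 at ZT20. The WT level was thus high at ZT4 and ZT8 and low at ZT16, ZT20 and ZT0, with its lowest mean, 4.55 TPM, at ZT0. In KO it was at 9.95 and 2.68 TPM at ZT0, 22.1 and 7.56 at ZT4, 11.2 and 26.1 at ZT8, 6.67 and 36.9 at ZT12, 51.8 and 60.5 at ZT16, and 75.9 and 28.5 at ZT20. The KO level was high at ZT16 and ZT20, with wide gaps between the 2 libraries of a time, and the 22.1 TPM at ZT4 is from the library that went against its label. KO lay below both WT libraries at ZT4 and ZT8 and above both at ZT16 and ZT20, with overlap at ZT0 and ZT12. How common such separation is among all genes tested was not counted.

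The contrast of Cyp24a1 passed at ZT16, at 3.11 log2 units (SE 0.82, limma adjusted p = 0.0197), or 8.65-fold. It did not pass at ZT20 (2.19, adjusted p = 0.149), ZT4 (-1.60, adjusted p = 0.412) or ZT8 (-1.60, adjusted p = 0.205). The ZT16 value kept its size without any 1 of the 4 libraries of that time, from 3.0 to 3.22, but the adjusted p then rose above the threshold: to 0.10 without WT ZT16 replicate A, 0.0778 without WT ZT16 replicate B, 0.0703 without KO ZT16 replicate A and 0.0722 without KO ZT16 replicate B.

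A 24-hour cosine was fitted to each gene in each genotype. For Cyp24a1 the fitted curve spanned 3.09 log2 units (SE 0.89) from trough to peak, with its peak at 7.44 h (SE 1.10), in WT, and 2.41 (SE 0.89) with a peak at 15.9 h (SE 1.41) in KO. By limma, neither rhythm passed over all genes tested, with limma adjusted p = 0.0607 in WT and limma adjusted p = 0.225 in KO. The test of the difference in rhythm gave an adjusted p = 0.139 (limma). The call for the WT rhythm turned on which KO libraries shared the fit. It passed without KO ZT0 replicate B (limma adjusted p = 0.0331), the library labelled KO ZT4 A (0.0466) or KO ZT12 replicate A (0.0290). It also passed in the 12 WT libraries fitted alone (0.0312). The WT curve itself stayed at 3.09 log2 units, peak 7.44 h, without the library labelled KO ZT4 A or KO ZT12 replicate A. KO libraries enter only the shared estimate of the spread. Without both libraries that stood apart, an alternative chosen after the data were seen, the WT rhythm (adjusted p = 0.0184), the KO rhythm (3.63 log2 units, peak at 15.0 h, adjusted p = 0.0449) and their difference (adjusted p = 0.0477) all passed, against 19.9%, 4.75% and 0.660% of all genes.

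None of the 9 genes, Cyp24a1 included, was called rhythmic in either genotype over all 24 libraries. Over the 9 genes, limma called 0 in WT (3 at an unadjusted p under 0.05: Cyp24a1, Calb1 and Slc8a1), against 13.7% of all genes. In KO it called 0 (2 unadjusted: Cyp24a1 and Trpv5), against 3.64%, and for the difference 0 (1 unadjusted: Cyp24a1), against 0.629%. Arntl itself had a WT peak-to-trough difference of 4.99 log2 units and one of 0.20 in KO.

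Calb1 and Slc8a1 had similar fitted curves in WT, with peaks near the end of the dark phase. For Calb1 the curve spanned 0.75 log2 units (SE 0.23), with a peak at 21.4 h and adjusted p = 0.0744. For Slc8a1 it was 0.90 (SE 0.29), with a peak at 21.8 h and adjusted p = 0.0980. Their fitted KO values were smaller, 0.08 (SE 0.23) and 0.24 (SE 0.29), but the difference in rhythm did not pass for Calb1 (adjusted p = 0.510) or Slc8a1 (adjusted p = 0.631). The 12 WT libraries fitted alone called 4 of the 9 genes rhythmic, against 22.1% of all genes: Cyp24a1, Calb1 (adjusted p = 0.0115), Slc8a1 (0.00955) and Atp2b1 (0.0446). Calb1 also passed without WT ZT0 replicate B (0.0367), KO ZT0 replicate A (0.0363) or KO ZT20 replicate B (0.0412).

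For Vdr, Casr, Trpv5 and S100g the fitted WT peak-to-trough differences were small, from 0.19 to 0.30 log2 units, and none passed. The fitted KO value of Trpv5 was 0.50 (SE 0.17, peak 15.2 h, adjusted p = 0.176). For Atp2b1 the fitted values were 0.25 (SE 0.10, adjusted p = 0.201) in WT and 0.24 (SE 0.10, adjusted p = 0.300) in KO.

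The rhythm of Cyp27b1 did not pass in WT (0.63 log2 units, SE 0.60, adjusted p = 0.736) or KO (0.46, SE 0.60, adjusted p = 0.879), with standard errors about as large as the fitted values. Its 2 libraries of a group could differ several-fold. In WT they were at 1.86 and 1.23 TPM at ZT0, 2.44 and 5.38 at ZT4, 3.23 and 2.42 at ZT8, 7.30 and 3.27 at ZT12, 1.75 and 1.98 at ZT16, and 2.35 and 7.29 at ZT20. In KO they were at 2.62 and 2.57 TPM at ZT0, 2.23 and 1.62 at ZT4, 5.64 and 1.56 at ZT8, 5.38 and 1.31 at ZT12, 4.12 and 2.48 at ZT16, and 2.19 and 3.37 at ZT20. High values appeared in single libraries of either genotype and at several times, and no contrast at any time passed.

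The transcripts of these genes were read separately, since a sum can hide transcripts that move apart. The 10 genes had 26 annotated transcripts in the table, and 16 reached a mean of 1 TPM. Of those, 10 were called for the genotype difference, all higher in KO, against 39.1% of 26201 transcripts in either direction. Most genes rested on 1 protein-coding transcript: it held 100% of the gene for Cyp24a1, S100g and Atp2b1, 99.8% for Trpv5, 92.2% for Vdr, 88.8% for Slc8a1, 85.8% for Casr and 85.6% for Calb1.

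A few minor transcripts stood out. A Cyp27b1 transcript annotated as a target of nonsense-mediated decay held 35.6% of its gene, beside 56.2% for the coding one, and neither was called. The main retained-intron transcript of Calb1 averaged 10.7 TPM ± 4.89 (SD, n = 12) in WT and 20.3 ± 10.2 (SD, n = 12) in KO, a difference of 0.87 log2 units (SE 0.31, adjusted p = 0.0333), beside 0.60 (SE 0.12) for the coding transcript. The retained-intron transcript of Vdr differed by 0.77 (SE 0.17, adjusted p = 0.00152), beside 0.20 (SE 0.06, adjusted p = 0.0161) for the main coding one. Whether the intron-retaining forms differed from the coding ones in their change was not tested. No transcript was called rhythmic or different in rhythm by limma (4, 4 and 1 at an unadjusted p under 0.05 in WT, in KO and for the difference), against 6.89%, 1.26% and 0.256% of all transcripts tested.

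Other genes of the pathway were taken as 4 lists. Of 14 tested genes of vitamin D synthesis, transport and receptor partners, 4 were higher and 2 lower in KO, with a median of 0.03. The shares of all genes tested were 50.9% higher and 10.0% lower. The 3 with the smallest adjusted p were Fdxr, whose product passes electrons, through ferredoxin, to mitochondrial P450 enzymes such as Cyp27b1 and Cyp24a1 (0.55, SE 0.07), Gc, the vitamin D binding protein (1.43, SE 0.22), and Amn, a partner of the cubilin receptor that retrieves filtered proteins (0.26, SE 0.04; adjusted p = 0.0560 under median-of-ratios scaling). Gc ran from 9.41 to 26.0 TPM in WT and from 14.6 to 77.5 in KO, and is a major product of liver. The 3 liver markers summed to 29.1 to 50.3 TPM in WT and 38.4 to 85.8 in KO, with Apoa2 higher (1.81) and Alb lower (-2.10), and their part in the Gc result was not tested. Under median-of-ratios scaling the balance of this list turned, to 2 higher and 7 lower with a median of -0.12, against 22.1% higher and 22.2% lower over all genes.

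Of 19 tested genes of parathyroid hormone signalling, calcium sensing and regulation of distal transport, 13 were higher and 1, the hormone's receptor Pth1r, was lower (median 0.21), and 5 were higher and 4 lower after median-of-ratios scaling. Over all genes 50.9% were higher and 10.0% lower, and after that scaling 22.1% and 22.2%, so the rescaled counts lie near the background. The leading genes were Stc2, a stanniocalcin (1.68, SE 0.19), S100a10 (0.73, SE 0.09) and Anxa2 (0.52, SE 0.09). S100a10 and annexin 2 are known to form a complex that brings Trpv5 and Trpv6 to the plasma membrane. S100a10 ran from 64.7 to 88.4 TPM in WT and from 87.8 to 174 in KO.

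Of 12 tested genes of other calcium pumps, exchangers, buffers and stores, 8 were higher and 0 lower (median 0.29), and 5 and 0 after median-of-ratios scaling, against 50.9% and 22.1% of all genes called higher on the same scales. They were led by Mcu, the mitochondrial calcium uniporter (0.34, SE 0.04), and by the calcium release channels Itpr2 (0.65, SE 0.08) and Itpr1 (0.34, SE 0.06). Among the other isoforms of the pump and the exchanger, Atp2b2, Atp2b3, Slc8a2 and Slc8a3 were below the filter. The pump Atp2b4, at a median of 12.2 TPM in WT and 12.7 in KO, was not called (0.05, SE 0.11, adjusted p = 0.700).

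Of 9 tested genes of the paracellular route and magnesium transport, 7 were higher and 0 lower (median 0.23), and 3 higher and 1 lower after median-of-ratios scaling, against 50.9% and 22.1% of all genes called higher. The leading genes were the claudins Cldn19 (0.75, SE 0.10), Cldn2 (0.24, SE 0.04; 0.09 and adjusted p = 0.0569 after that scaling) and Cldn16 (0.53, SE 0.09). Cldn16 and Cldn19 together form the paracellular cation route of the thick ascending limb, and Cldn2 that of the proximal tubule.

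For 4 of the genes, those with the most similar profile were sought over the 12 group means of log2(TPM + 0.1), as a description across groups that share the same libraries. Those closest to Cyp24a1 were Ttc39b (Pearson r = 0.822), Ccdc163 (0.771) and Rab11b-ps2 (0.760). Those closest to Cyp27b1 were Igkv4-61 (0.830), Cited4 (0.812) and Gm42936 (0.767). Calb1 was closest to Metrn (0.968), Mrps25 (0.959) and Tesc (0.959), and Trpv5 to Sorbs2 (0.989), Cbr1 (0.989) and Gsta2 (0.986). The values for Trpv5 and Calb1, which differed between the genotypes, were higher than those for the 2 enzymes, which were not called. All were picked as the highest among all genes tested over only 12 means. The r that unrelated profiles reach under such a search was not worked out.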

How the data were processed

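Polyadenylated RNA of 24 mouse kidney libraries was analysed, and the 4C-seq data of the series were not used. The authors deposited TPM per transcript, and the submitters' processing notes name kallisto 0.42.4 and the builds mm10 and GRCm38. TPM keeps no sequencing depth. Transcripts were summed to genes through GENCODE M21 (GRCm38) by Ensembl identifier without version: 86119 of 88198 matched, and the other 2079, with 1.35% to 2.24% of TPM per library, were left out. Replicate letters and groups came from the labels.

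Tests used log2(TPM + 0.1) for the 12874 genes whose mean reached 1 TPM. Fold changes are on that scale and understate those of low genes. limma 3.58.1 (lmFit, eBayes with trend and robust options; R 4.3.3) was fitted over all 24 libraries, with Benjamini-Hochberg adjustment over all genes tested and a threshold of 0.05. The models were genotype plus time as a 6-level factor, a 24-hour cosine per genotype (moderated F), the genotype difference in that cosine, and 12 group means with a contrast at each time. Contrasts are two-sided. The models were run on simulated data in which few genes changed, so a genotype difference in most genes, as seen here, was not covered.

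The 10 genes, the pathway lists and the marker lists were chosen with earlier results of these data known. All 10 genes are named, with up to 3 genes per pathway list (smallest adjusted p) and the 3 most similar profiles for 4 genes. Any other gene named was picked with its values in view. The alternatives were a pseudocount of 1 or 0.01, no filter or one at 5 TPM, other scalings, other time terms and limma options, a replicate block, and leaving out each library.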

Additional observations from a re-analysis of the deposited data

Results flagged for a closer look

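For Cyp24a1 the sign of the estimated KO minus WT difference changed with the time of day, and only the contrast at ZT16 passed. Both KO libraries lay below both WT libraries at ZT4 (-1.60 log2 units) and ZT8 (-1.60), and above both at ZT16 (3.11) and ZT20 (2.19). The test of the difference in rhythm did not pass (limma adjusted p = 0.139), and one KO library at ZT4 is the library labelled KO ZT4 A. The share of all genes that separate in this way at a time was not counted, so no reversal is read from it.

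For Cyp27b1 both KO libraries lay above both WT libraries at ZT0 (0.74) and ZT16 (0.75), and below both at ZT4 (-0.90). The difference in rhythm did not pass (limma adjusted p = 0.910), and each of these contrasts was close in size to its standard error of 0.71. How many of all genes separate in this way at a time was not counted, so no reversal is read from it.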

How the results depend on the processing

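Of 3014 values recomputed for single genes under the alternatives, 2913 stayed on the same side of the threshold, 80 lost a call, 21 gained one and 0 changed sign with a call in either fit. Of the 2081 genotype values among them, 23 changed sign (at 2 decimals) with no call in either fit, among them Cyp24a1 and Slc8a1 at single times, Calb1 at ZT20 and Cyp27b1 over all times. The number of genes called for the genotype difference was 7 in every fit without 1 library, 5 under median-of-ratios scaling and 8 (Trpv6 added) with no filter. The WT rhythm count of 0 became 0 to 1 in fits without 1 library, 1 without both libraries that stood apart and 4 in the 12 WT libraries alone. The KO rhythm count and the count for the difference in rhythm, both 0, each became 1 without both libraries. Of 19 contrasts at single times, 13 to 21 were called in fits without 1 library, and 13 under median-of-ratios scaling. Over all genes, KO rhythm was called for 468 genes and for 12 in the KO libraries alone, WT rhythm for 1761 and for 576 with time as a factor or 2843 in WT alone, and the difference for 81 and for 23 with time as a factor. The replicate block left 7 genes called for genotype and 18 contrasts at single times. Within a time, deviations of replicate A from its group mean correlated weakly between WT and KO (-0.089 to 0.150 over the 6 times). Weak correlations of this kind cannot show whether the letters pair libraries. The cause of these changes was not tested. TPM keeps no depth, so what depth limits could not be assessed.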
